A study of Mus musculus with 38 samples.

Results

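The antigen presentation genes of the major histocompatibility complex (MHC) were followed in the left ventricle of mice with and without heart failure with preserved ejection fraction (HFpEF). The genes are 10 of the 29564 in the deposited tables and were chosen by name. They fall into 4 class I genes (H2-K1, H2-D1, B2m and Tap1) and 6 class II genes (H2-Aa, H2-Ab1, H2-Eb1, H2-DMa, Cd74 and Ciita), and all 10 had a row in the count table and in the TPM table. TPM, transcripts per 1000000, is a level per transcript length and per library. RNA came from 38 mice, 1 library per mouse, all wild-type C57BL6 by the labels (C57BL/6J in the methods). The non_failing mice (n = 8) were healthy controls labelled with vehicle as their treatment. The other groups carried the HFpEF model, a high-fat diet combined with L-NAME, an inhibitor of nitric oxide synthesis, and received either vehicle (HFpEF+Veh, n = 8), TYA-018, which inhibits HDAC6 (HFpEF+TYA-018, n = 11), or empagliflozin, which inhibits SGLT2 (HFpEF+SGLT2i, n = 11). The sample labels give the mice as female, whereas the methods of the study describe male mice. The non_failing mice differed from the HFpEF mice in both diet and L-NAME, so these cannot be told apart.

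MHC class I molecules display peptides from the inside of a cell to CD8+ T cells. H2-K1 and H2-D1 encode class I heavy chains, B2m encodes beta-2 microglobulin, the light chain that each of them needs at the cell surface, and Tap1 encodes a subunit of the transporter that carries peptides into the endoplasmic reticulum. MHC class II molecules display peptides taken up from outside to CD4+ T cells and are made mainly by dendritic cells, macrophages and B cells. H2-Aa and H2-Ab1 encode the alpha and beta chains of the I-A molecule and H2-Eb1 the beta chain of I-E. Cd74 encodes the invariant chain that holds class II molecules until a peptide is loaded, H2-DMa encodes the alpha chain of the loading factor H2-DM, and Ciita encodes the transactivator that switches class II genes on. C57BL6 mice carry the H-2b haplotype, which lacks a working alpha chain gene for I-E.

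The class I and class II promoters share a short module, known as the X and Y boxes, through which CIITA and its class I counterpart NLRC5 act without touching DNA themselves. The promoter sequences are shown so that the genes of both classes can be compared for letters of this module. Not all of them held these letters in the exact form searched. The 180 bases before the RefSeq start site were taken from the GRCm38.p6 assembly for 2 class I genes and 2 class II genes. Each runs 5′ to 3′ along the strand of its gene, and capitals mark letters searched for, on either strand.
H2-K1, chr17:34000348-34000527, minus strand: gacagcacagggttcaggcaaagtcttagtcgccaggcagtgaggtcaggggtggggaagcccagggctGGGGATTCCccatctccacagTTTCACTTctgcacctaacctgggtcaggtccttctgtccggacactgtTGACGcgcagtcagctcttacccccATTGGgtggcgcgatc
B2m, chr2:122147507-122147686, plus strand: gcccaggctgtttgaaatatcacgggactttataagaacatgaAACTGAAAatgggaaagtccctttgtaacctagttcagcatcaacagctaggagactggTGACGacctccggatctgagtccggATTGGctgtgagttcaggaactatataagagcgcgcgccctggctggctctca
H2-Aa, chr17:34287824-34288003, minus strand: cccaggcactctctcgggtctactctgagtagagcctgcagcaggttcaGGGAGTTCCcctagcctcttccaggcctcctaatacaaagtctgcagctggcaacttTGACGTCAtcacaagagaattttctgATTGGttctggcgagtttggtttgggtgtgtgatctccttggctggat
H2-Eb1, chr17:34305687-34305866, plus strand: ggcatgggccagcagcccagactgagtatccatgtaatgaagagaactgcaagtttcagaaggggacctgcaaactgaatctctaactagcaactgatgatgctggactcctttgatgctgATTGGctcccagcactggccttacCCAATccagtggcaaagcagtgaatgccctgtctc
The letters searched for were the core of the X2 box, TGACG, the core of the Y box, ATTGG, a stretch of the X1 box, AGNNACAGA, an interferon element, TTTCNNTT, and a kB element, GGGNNTTCC. In H2-K1 TGACG began 41 bases before the start and ATTGG 16 bases before it. In B2m they began 78 and 53 bases before the start, and in H2-Aa 74 and 48. The spacing from the start of TGACG to that of ATTGG was thus 25 bases in H2-K1 and B2m and 26 in H2-Aa. H2-D1, whose upstream bases lie in an annotated exon and are not printed, had them 25 apart as well. In H2-Aa the TGACG letters also read on the opposite strand, in an overlapping match. H2-Eb1 held ATTGG 59 bases before its start but no TGACG in the 250 bases searched. Of 32851 RefSeq promoters of the same length, 17.8% held TGACG, 33.8% held ATTGG, 21.3% the interferon element and 4.98% the kB element, on either strand. Only 0.122% held TGACG followed by ATTGG on 1 strand at a distance of 24 to 27 bases. Entries were searched for 7 of the 10 genes. Tap1 held TGACG at 86 bases but ATTGG on the opposite strand at 222 bases, and neither of the 2 H2-DMa entries held the spaced pair. The X1 stretch was found in 0 of the 7 genes searched, beside 7.04% of all promoters. Only exact letters were searched, with N for any base. Boxes with variant letters were missed, so a missing match does not show a missing box. Such matches describe letters and not binding.

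The genes lie on 4 chromosomes (coordinates on GRCm38). The MHC on chromosome 17 holds 7 of them: H2-K1 at chr17:33996017-34000347, H2-DMa at chr17:34119541-34139101, Tap1 at chr17:34187553-34197225, H2-Ab1 at chr17:34257689-34269419, H2-Aa at chr17:34282744-34287823, H2-Eb1 at chr17:34305867-34316674 and H2-D1 at chr17:35262730-35267499. B2m lies at chr2:122147686-122153083, Ciita at chr16:10480059-10528418 and Cd74 on chromosome 18. H2-K1 and H2-D1 are close copies of each other. Of all stretches of 31 bases in the longest coding transcript of H2-K1, 23.4% also occurred in another gene and 16.9% in H2-D1. For H2-D1 27.5% occurred in another gene and 12.9% in H2-K1. The counting divided shared reads between genes by a model, so the separate values of these genes carry that uncertainty. For B2m, H2-Aa and H2-DMa 0% was shared with another gene.

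Library sizes ran from 21.5 to 59.3 M counts (M, 1000000), with medians of 29.8 M for non_failing, 29.1 M for HFpEF+Veh, 29.8 M for HFpEF+TYA-018 and 28.8 M for HFpEF+SGLT2i. The library HFpEF+Veh V2523 stood apart, with 493 TPM of the liver gene Alb against at most 9.49 TPM in the other vehicle libraries, and its summed hepatocyte markers reached 1680 TPM. Vehicle values of the MHC genes are therefore also given without it. Summed hepatocyte markers ran from 37.0 to 386 TPM in non_failing hearts, highest in V2504. They ran from 17.7 to 46.6 TPM in HFpEF+Veh without V2523, 8.34 to 28.0 in HFpEF+TYA-018 and 12.7 to 25.5 TPM in HFpEF+SGLT2i. The part of liver transcripts in differences from non_failing was not tested. The labels give no batch, litter or day. The labelled tissue held its defining transcripts in every library, since the 8 cardiomyocyte markers summed to between 15539 and 29715 TPM. Nothing in the labels beyond the mouse number separates the hearts of a group. The p-values thus measure the spread between mice together with any unlabelled differences between their libraries.

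The class I light and heavy chains were abundant in every heart, and Tap1 was far lower. B2m was the highest of the 10 genes, with a median of 486 TPM over the 38 libraries. H2-D1 followed at 132, H2-K1 at 93.4 and Tap1 at 4.93 TPM. H2-D1 lay above H2-K1 in 38 of 38 libraries although their ranges overlapped.

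B2m ran from 373 to 589 TPM in non_failing hearts with a median of 519, and from 403 to 647 with a median of 534 in HFpEF+Veh. It ran from 308 to 543 with a median of 425 in HFpEF+TYA-018, and from 295 to 506 with a median of 383 in HFpEF+SGLT2i. The empagliflozin group had the lowest median, and the groups overlapped. Its mean of 409 ± 80.5 TPM (SD, n = 11) compared with 514 ± 65.9 TPM (SD, n = 8) in non_failing. Without V2523 the vehicle mean was 524 ± 82.7 TPM (SD, n = 7), against 528 ± 77.3 with it (n = 8).

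H2-K1 spanned 60.4 to 125 TPM in non_failing (median 104), 66.2 to 137 in HFpEF+Veh (median 114), 52.1 to 107 in HFpEF+TYA-018 (median 86.7) and 60.9 to 111 TPM in HFpEF+SGLT2i (median 84.0). H2-D1 spanned 92.9 to 162 TPM in non_failing (median 128), 107 to 172 in HFpEF+Veh (median 155), 94.6 to 146 in HFpEF+TYA-018 (median 127) and 93.2 to 174 TPM in HFpEF+SGLT2i (median 117). Tap1 spanned 3.34 to 6.24 TPM in non_failing (median 4.86), 4.02 to 9.32 in HFpEF+Veh (median 5.88), 2.67 to 8.64 in HFpEF+TYA-018 (median 4.905) and 3.08 to 9.86 TPM in HFpEF+SGLT2i (median 4.96). For each of these genes the vehicle median was the highest of the 4 groups, with wide overlap. Without V2523 the vehicle medians were 116 for H2-K1, 164 for H2-D1 and 5.74 TPM for Tap1, still above those of the other groups.

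**Figure D1:**
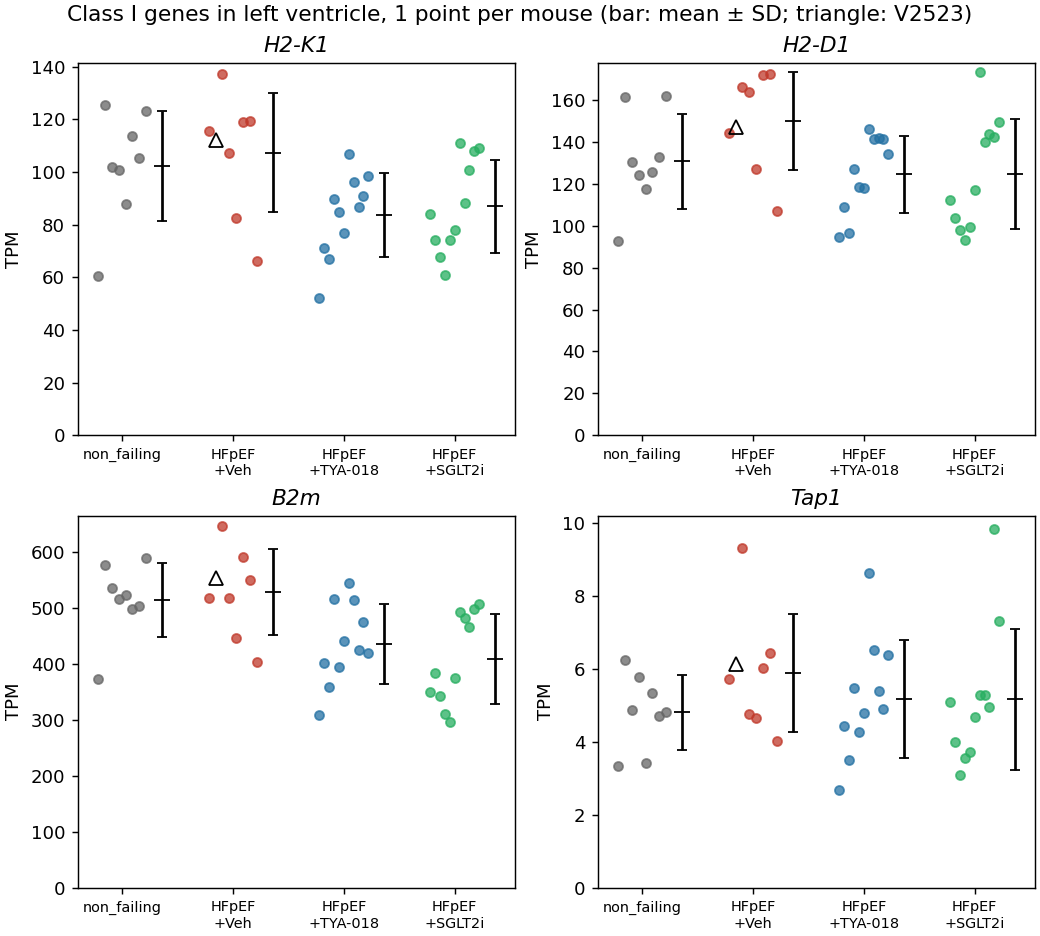
Level of the 4 class I genes in TPM (vertical axis, starting at 0) in each left ventricle, by group; points are mice, bars the mean ± SD and the open triangle HFpEF+Veh V2523. B2m in HFpEF+SGLT2i lies between 295 and 506 TPM, and for every gene the groups overlap.

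Class II genes covered a far wider range of levels. Cd74 had a median of 61.2 TPM over the 38 libraries, H2-Aa 39.1 and H2-Ab1 26.7. H2-Eb1 followed at 1.09, Ciita at 0.177 and H2-DMa at 0.0961 TPM. Cd74 lay above H2-Aa, and H2-Aa above H2-Ab1, in 38 of 38 libraries, whereas H2-Eb1 lay above Ciita in 31 and Ciita above H2-DMa in 29. The highest class II gene overlapped the class I heavy chain H2-K1, which was above Cd74 in 37 of 38 libraries.

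Cd74 ran from 57.5 to 97.8 TPM in non_failing hearts (median 66.6), from 45.2 to 75.5 in HFpEF+Veh (median 63.6), from 39.7 to 67.9 in HFpEF+TYA-018 (median 53.0) and from 40.2 to 101 TPM in HFpEF+SGLT2i (median 64.8). The TYA-018 group was the lowest and the narrowest, with a mean of 51.1 ± 8.76 TPM (SD, n = 11) against 73.4 ± 15.6 in non_failing (n = 8). The empagliflozin group was the widest. H2-Aa ran from 39.1 to 75.4 TPM in non_failing (median 47.8), from 29.8 to 56.9 in HFpEF+Veh (median 38.3), from 25.1 to 55.4 in HFpEF+TYA-018 (median 33.4) and from 24.01 to 65.6 TPM in HFpEF+SGLT2i (median 37.3). H2-Ab1 ran from 23.5 to 41.2 TPM in non_failing (median 29.1), from 14.5 to 35.9 in HFpEF+Veh (median 28.0), from 13.4 to 28.3 in HFpEF+TYA-018 (median 21.8) and from 15.2 to 49.1 TPM in HFpEF+SGLT2i (median 27.8). Each of these genes had its highest median in non_failing and its lowest in HFpEF+TYA-018, and no pair of groups was free of overlap. Leaving out V2523 moved the vehicle means from 61.9 to 60.8 TPM for Cd74, from 40.5 to 39.5 for H2-Aa and from 26.7 to 25.8 for H2-Ab1.

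Ciita, the transactivator, was near the bottom of the range. It ran from 0.148 to 0.329 TPM in non_failing (median 0.200), from 0.140 to 0.273 in HFpEF+Veh (median 0.170, or 0.165 without V2523), from 0.0607 to 0.198 in HFpEF+TYA-018 (median 0.133) and from 0.0938 to 0.319 TPM in HFpEF+SGLT2i (median 0.183). These levels rested on 13.9 to 78.5 counts per library. As for its target genes Cd74, H2-Aa and H2-Ab1, the median was highest in non_failing and lowest in HFpEF+TYA-018.

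H2-Eb1 and H2-DMa were measured poorly. The gene tables do not show how reads were divided between transcripts, so a 0 or near-0 value is an estimate that may not stand for absent RNA. H2-Eb1 was estimated at 0 counts in 7 of 38 libraries, with 3 of these among the vehicle hearts, 1 with TYA-018, 3 with empagliflozin and 0 in non_failing, while in the others it reached 4.38 TPM. A count of 0 allows up to 3 counts, which came to between 0.0443 and 0.109 TPM in those libraries, a limit that covers counting error only. The non_failing libraries ran from 0.377 to 4.38 TPM, those of HFpEF+Veh from 0 to 2.54, those of HFpEF+TYA-018 from 0 to 2.73 and those of HFpEF+SGLT2i from 0 to 2.37 TPM. The vehicle median was 0.744 TPM, or 0.519 TPM without V2523. The spread within a group was large, with a coefficient of variation of 69.2% to 111%. The alpha chain partner of H2-Eb1 is listed as the pseudogene H2-Ea-ps and had 0 counts in all 38 libraries. H2-DMa was at 0 in 5 libraries, with a median of 4.90 and at most 26.8 counts, and did not pass the filter on low counts. Its group medians lay between 0.0955 and 0.0993 TPM, and the vehicle median was 0.104 TPM without V2523. The gene of its partner chain, H2-DMb1, had a median of 2.88 TPM.

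**Figure D2:**
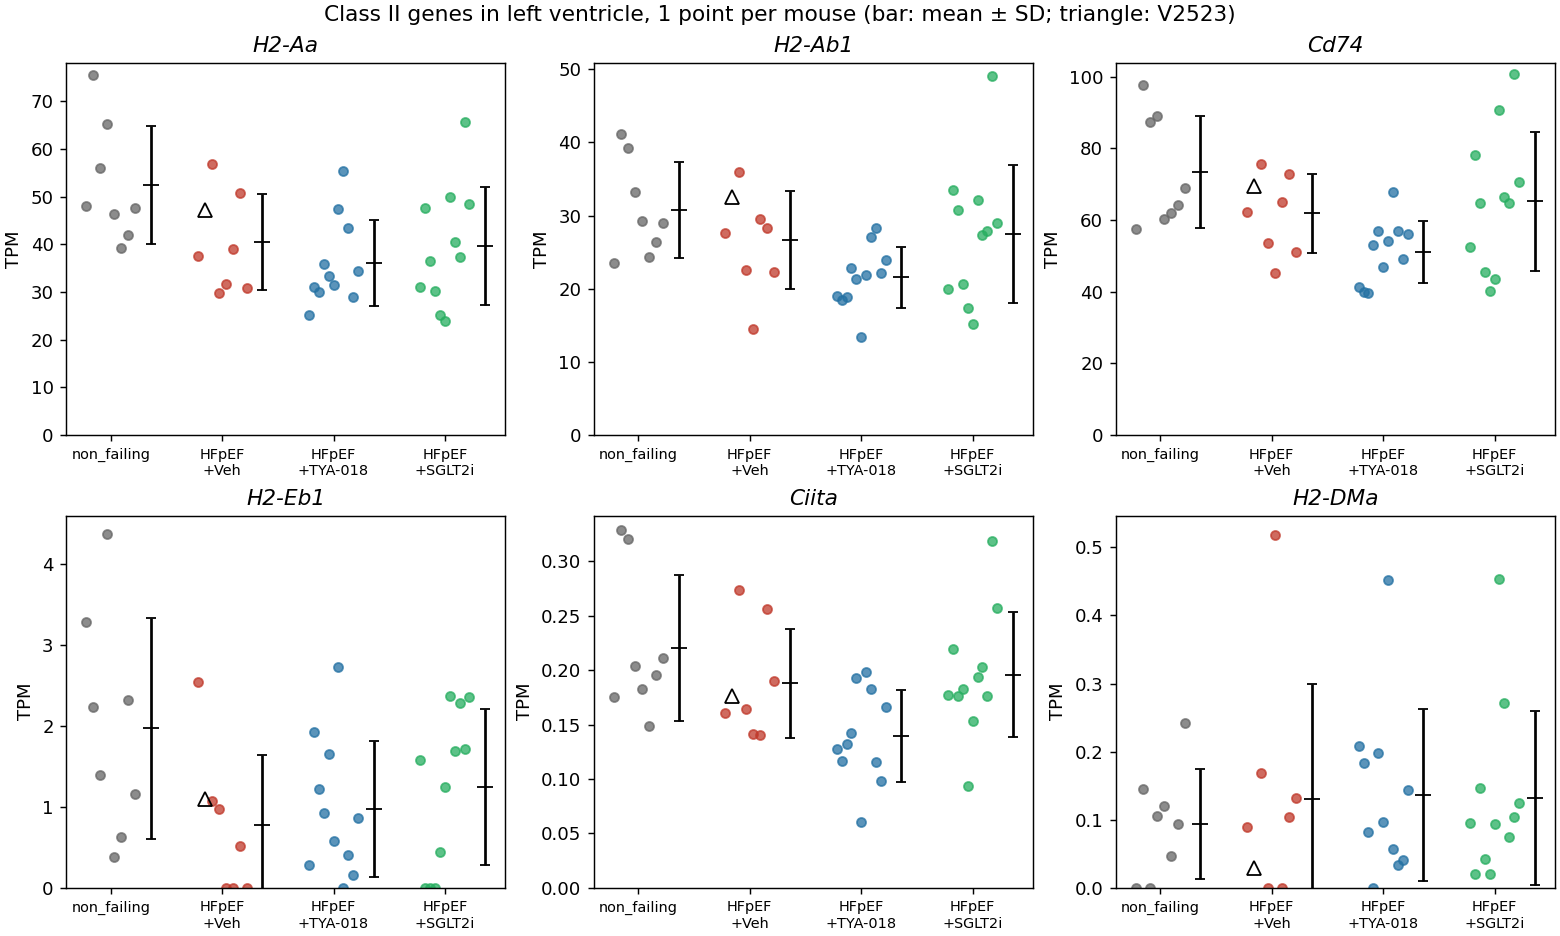
Level of the 6 class II genes in TPM (vertical axis, starting at 0) in each left ventricle, by group; points are mice, bars the mean ± SD, drawn down to 0 at most, and the open triangle HFpEF+Veh V2523. Cd74, H2-Aa, H2-Ab1 and Ciita lie lowest by median in HFpEF+TYA-018, whereas H2-Eb1 is at 0 in 7 libraries.

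Differences between groups were tested on the counts with edgeR over all 13765 genes that passed the filter, which 9 of the 10 MHC genes did. A gene was called at a Benjamini-Hochberg adjusted p under 0.05. The alternative fit with limma did not test H2-Eb1, which had counts in fewer than 90% of libraries. Fold changes come from counts scaled by TMM factors, not from TPM, so they can differ from ratios of the TPM means. In whole tissue, fewer cells of a type and less RNA per cell cannot be told apart. Comparisons that share a group are not independent of each other, since 3 of them share the non_failing hearts and 3 the vehicle hearts.

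The first comparison asked how HFpEF hearts differed from healthy hearts. The 4 class I genes lay close to no change between HFpEF+Veh and non_failing, with log2 fold changes from -0.06 for H2-K1 to 0.14 for Tap1, which was at 0.0029 without V2526. All 5 class II genes tested had lower estimates, with a median of -0.35 beside 0.01 for all genes. H2-Aa was at -0.48 (SE 0.18, edgeR adjusted p = 0.154), with 7 of 8 vehicle libraries below the non_failing mean. Cd74 was at -0.35 (SE 0.15, edgeR adjusted p = 0.237), H2-Ab1 at -0.30, Ciita at -0.30 and H2-Eb1 at -1.45 with an SE of 0.87. None of the 9 was called by edgeR or DESeq2, beside 3.15% of all genes by edgeR, and none of those tested by limma. The unadjusted p was under 0.05 for 2 of the 9, H2-Aa and Cd74, beside 15.9% of all genes. Without V2523 the background was 4.49% and again 0 of the 9 were called, with H2-Aa at -0.52 (edgeR adjusted p = 0.110) and Cd74 at -0.37 (edgeR adjusted p = 0.196). Macrophage markers had estimates in the other direction. All 11 tested were higher in HFpEF+Veh, with 0 called, and their summed level was 118 to 234 TPM in non_failing and 184 to 315 TPM in HFpEF+Veh. The part of these cells in the class II values was not tested.

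TYA-018 and vehicle were compared to ask what HDAC6 inhibition changed in HFpEF hearts. None of the 9 genes was called by edgeR or DESeq2, beside 1.93% of all genes by edgeR, and none of those tested by limma. The unadjusted p was under 0.05 for 0 of the 9, beside 17.5% of all genes. The 4 class I genes had lower estimates with TYA-018, from -0.07 for Tap1 to -0.22 for H2-K1 (SE 0.12, edgeR adjusted p = 0.340, lower in 10 of 11 libraries), although Tap1 reached 0.06 with 1 library left out. Among the class II genes Ciita was at -0.29 (SE 0.20, edgeR adjusted p = 0.471), H2-Ab1 at -0.14, Cd74 at -0.10 and H2-Aa at -0.02. Ciita ran from -0.36 to -0.17, H2-Ab1 from -0.23 to -0.05 and Cd74 from -0.14 to -0.04 with 1 library left out. H2-Eb1 went the other way, at 0.53 with a wide error (SE 0.81, edgeR adjusted p = 0.775) and a range of 0.28 to 1.07 with 1 library left out. Without V2523 the background was 1.42%, 0 were called, and H2-Aa turned to 0.03.

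Empagliflozin and vehicle were compared in the same way. Class I and class II estimates pointed in opposite directions, with all 4 class I genes lower and all 5 class II genes higher under empagliflozin. Tap1 turned to 0.06 with the median effective length as a covariate and reached 0.06 with 1 library left out, and H2-Aa turned to -0.03 with limma on log2(TPM + 1) and reached -0.02 with 1 library left out. None was called by edgeR or DESeq2, beside 0.85% of all genes by edgeR, and none of those tested by limma. B2m was at -0.36 (SE 0.13, unadjusted p = 0.0081, edgeR adjusted p = 0.240, lower in 10 of 11 libraries) and was the 1 gene with an unadjusted p under 0.05, beside 10.05% of all genes. Cd74 was at 0.16 and H2-Ab1 at 0.15, both within 2 SE of 0. Cd74 ran from 0.06 to 0.21 and H2-Ab1 from 0.03 to 0.24 with 1 library left out. Without V2523 the background was 0.0145%, B2m was at -0.38 (edgeR adjusted p = 0.293) and 0 were called.

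TYA-018 and empagliflozin were also compared with each other. None of the 9 genes was called by edgeR or DESeq2, beside 0% of all genes by edgeR and 1.34% by DESeq2. Of those tested by limma none was called. B2m was higher by an estimate of 0.25 with TYA-018 (SE 0.12, unadjusted p = 0.043, edgeR adjusted p = 0.361) and Ciita lower by an estimate of -0.40 (SE 0.19, unadjusted p = 0.039, edgeR adjusted p = 0.348), beside 13.2% of all genes with an unadjusted p under 0.05. All 5 class II genes had lower estimates with TYA-018, among them H2-Ab1 at -0.29 and Cd74 at -0.25, each lower in 9 of 11 libraries. H2-Ab1 ran from -0.36 to -0.18, Cd74 from -0.30 to -0.16 and H2-Aa from -0.18 to -0.0020 with 1 library left out. The 8 B cell markers tested also had lower estimates with TYA-018, with a median of -0.42 and 0 called. Their summed level was 0.782 to 3.31 TPM in HFpEF+TYA-018 and 1.40 to 4.99 TPM in HFpEF+SGLT2i, and its part in the class II values was not tested.

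**Figure D3:**
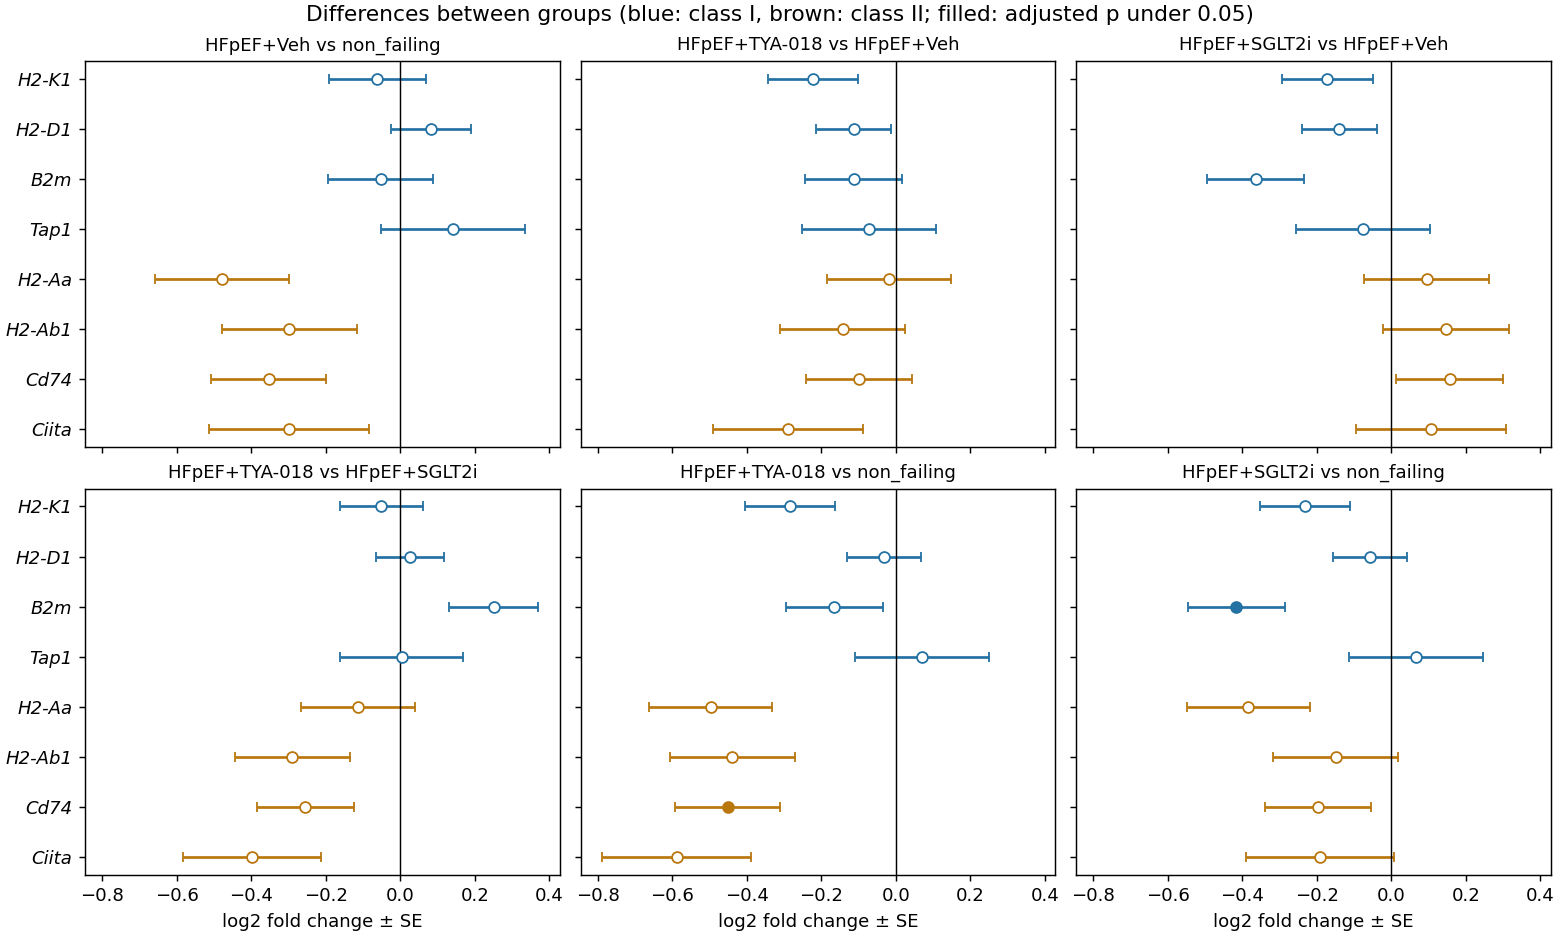
Log2 fold change ± SE (horizontal axis) of 8 MHC genes in the 6 comparisons, class I in blue and class II in brown, with filled points for an adjusted p under 0.05; H2-Eb1, with an SE of up to 0.87, is not drawn. The filled points are B2m at -0.42 in HFpEF+SGLT2i against non_failing and Cd74 at -0.45 in HFpEF+TYA-018 against non_failing.

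Treated HFpEF hearts were compared with healthy hearts to ask what remained different under each drug. In these comparisons 8 of 10 hepatocyte markers were called lower with each drug, beside 7.39% of all genes for TYA-018 and 6.45% for empagliflozin. The part of liver transcripts in the calls below was not tested. With TYA-018, Cd74 was called lower than in non_failing, at -0.45 on the log2 scale (SE 0.14, edgeR adjusted p = 0.044), with 11 of 11 libraries below the non_failing mean. It was 1 of 5 class II genes called, beside 7.39% of all genes. The other class II genes were at -0.50 for H2-Aa (edgeR adjusted p = 0.059), -0.44 for H2-Ab1 (edgeR adjusted p = 0.103), -0.59 for Ciita (edgeR adjusted p = 0.065, lower in 11 of 11 libraries) and -0.92 for H2-Eb1 (edgeR adjusted p = 0.530). Of the class I genes 0 of 4 were called by edgeR, DESeq2 or limma, and H2-K1 was at -0.28 with an unadjusted p of 0.024. The unadjusted p was under 0.05 for 5 of the 9 genes, beside 21.97% of all genes. DESeq2 called 3 class II genes, Cd74, H2-Aa and Ciita, beside 9.24% of all genes by DESeq2. The Cd74 call was lost, at a fold change of -0.46 to -0.39 and an edgeR adjusted p of 0.051 to 0.098, when any 1 of 10 libraries was left out (V2502, V2503, V2504, V2507, V2543, V2546, V2547, V2550, V2551 and V2570). Conversely H2-Aa was called without V2508, V2552, V2555, V2566 or V2574 (edgeR adjusted p 0.032 to 0.047), Ciita without V2508, V2551 or V2565 (0.040 to 0.049) and H2-K1 without V2501 (0.045). In the direct comparison of TYA-018 with vehicle, Cd74 differed by -0.10 (SE 0.14, edgeR adjusted p = 0.762). That estimate is too imprecise to decide whether the difference of Cd74 from non_failing was larger with TYA-018 than with vehicle.

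With empagliflozin, B2m was called lower than in non_failing, at -0.42 (SE 0.13, edgeR adjusted p = 0.045), with 10 of 11 libraries below the non_failing mean. It was 1 of 4 class I genes called, beside 6.45% of all genes. H2-K1 was at -0.23 (edgeR adjusted p = 0.283), H2-D1 at -0.06 and Tap1 at 0.07. Of the class II genes 0 of 5 were called by edgeR or DESeq2, and none of those tested by limma. H2-Aa was at -0.38 with an unadjusted edgeR p of 0.026. The unadjusted p was under 0.05 for 2 of the 9 genes, beside 19.6% of all genes. The B2m call was lost with limma on log2(TPM + 1) (adjusted p = 0.139), and in edgeR with no filter (adjusted p = 0.052) and with library size alone (adjusted p = 0.0501). Within the empagliflozin group, split by library number after the values were seen and without a test, the 6 libraries V2561 to V2566 lay at 295 to 383 TPM of B2m and the 5 libraries V2571 to V2575 at 465 to 506 TPM, beside a non_failing median of 519 TPM. The call was also lost, at -0.43 to -0.38 and an edgeR adjusted p of 0.060 to 0.095, when any 1 of 12 libraries was left out (V2502, V2503, V2504, V2507, V2508, V2509, V2510, V2562, V2563, V2564, V2565 and V2566). H2-Aa was called without V2574, at -0.50 (edgeR adjusted p = 0.046). The 11 macrophage markers had higher estimates in this comparison too, and Ccr2, a receptor of recruited monocytes, was called at 0.83 (SE 0.21, edgeR adjusted p = 0.013).

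The other genes of the class I pathway were taken from a list of 23, of which 22 were in the tables and 21 were tested. The list covers the second transporter subunit, the loading complex, the immunoproteasome and other heavy chains. It had 1 call among 21 in HFpEF+Veh against non_failing, beside 3.15% of all genes. That was Psme1, a subunit of the interferon-induced proteasome activator, which fell from 75.8 ± 8.17 TPM in non_failing (SD, n = 8) to 62.4 ± 4.88 in HFpEF+Veh (n = 8), at -0.39 (SE 0.09, edgeR adjusted p = 0.0091). Without V2523 the list had 2 calls in that comparison, beside 4.49% of all genes, with Psme1 at -0.42 (edgeR adjusted p = 0.0057). Psme1 was also called in HFpEF+SGLT2i against non_failing at -0.30 (edgeR adjusted p = 0.021), together with Pdia3, a chaperone of the loading complex, at -0.26 (edgeR adjusted p = 0.049), which made 2 of 21 beside 6.45% of all genes. H2-Q10, a class I gene known for its expression in liver, was called lower with TYA-018 than with vehicle at -1.69 (edgeR adjusted p = 0.046), the 1 call of 21 beside 1.93% of all genes. Without V2523 that difference was -0.04 (edgeR adjusted p = 0.9504). H2-Q10 was also called in HFpEF+TYA-018 against non_failing at -1.72 (edgeR adjusted p = 0.017), again the 1 call of 21, beside 7.39% of all genes. In that comparison the summed hepatocyte markers were 37.0 to 386 TPM in non_failing and 8.34 to 28.0 TPM in HFpEF+TYA-018, and their part was not tested. None of the 21 was called between the drugs, beside 0% of all genes, or between empagliflozin and vehicle, beside 0.85%. In each case 2 had an unadjusted p under 0.05, beside 13.2% and 10.05% of all genes.

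Of 19 other class II pathway genes, which cover H2-DM and H2-O chains, lysosomal proteases and the RFX and NF-Y factors that bind the X and Y boxes, 15 were in the tables and 13 were tested. None was called by edgeR in any of the 6 comparisons, with between 0 and 3 at an unadjusted p under 0.05, beside 0% to 7.39% of all genes called and 10.05% to 21.97% of all genes with an unadjusted p under 0.05. H2-DMb1 lay between -0.18 and 0.07. The interferon gamma axis, the receptor, kinases and factors through which interferon gamma induces Ciita and Nlrc5, also had 0 calls among 9 genes tested, with 0 or 1 at an unadjusted p under 0.05, beside the same shares of all genes. Ifng itself was at 0 counts in 30 of 38 libraries, reached at most 4 counts and was not tested. Nlrc5, the class I transactivator, had 2.89 ± 0.954 TPM in non_failing and 2.47 ± 0.704 TPM with vehicle (SD, n = 8 each). It had 2.23 ± 1.10 TPM with TYA-018 and 2.08 ± 0.966 TPM with empagliflozin (SD, n = 11 each). Against non_failing it was at -0.36 with vehicle (edgeR adjusted p = 0.493), -0.49 with TYA-018 (edgeR adjusted p = 0.189) and -0.37 with empagliflozin (edgeR adjusted p = 0.385), with no call.

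The genes varied together between hearts of a group. After subtracting each group mean from the log2 CPM (counts per 1000000), the 6 pairs of class I genes had Pearson correlations from 0.74 to 0.90 and Spearman correlations from 0.76 to 0.87 over 38 libraries. The 6 pairs among H2-Aa, H2-Ab1, Cd74 and Ciita had Pearson correlations from 0.66 to 0.93, the closest pair being H2-Aa and Cd74 at 0.93 (Spearman 0.93). Across the classes the 16 pairs without H2-Eb1 ran from 0.43 to 0.70. Leaving out the 2 libraries farthest from the median of the first gene gave 0.76 to 0.88 within class I, 0.63 to 0.90 within class II and 0.37 to 0.68 across classes. Without V2523 these were 0.74 to 0.90, 0.68 to 0.93 and 0.43 to 0.70. The hearts share library depth and scaling, so these correlations describe the libraries and carry no p.

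**Figure D4:**
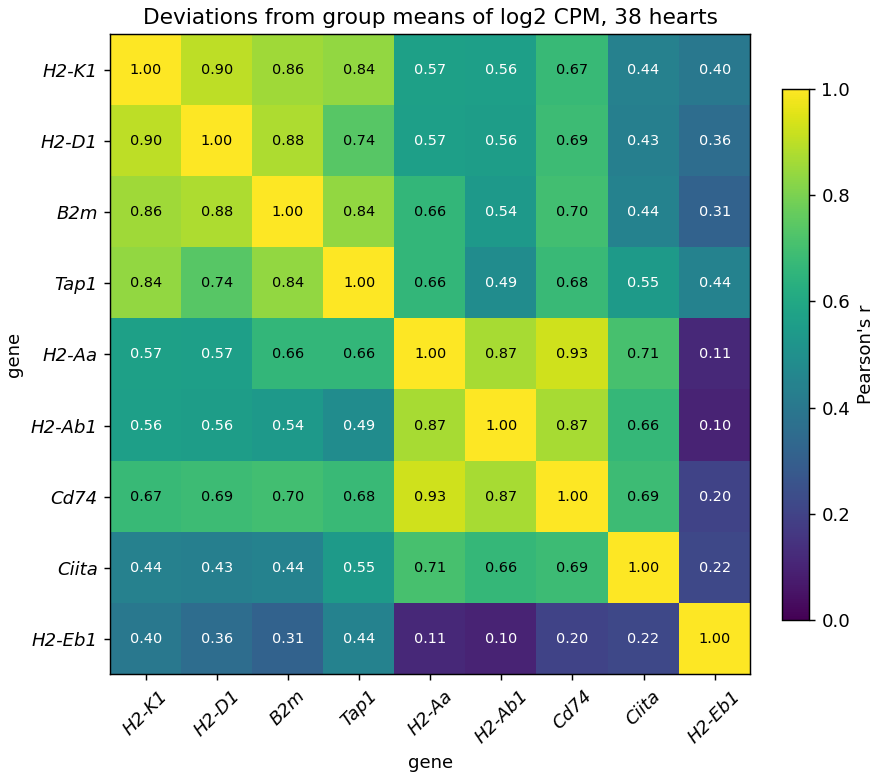
Pearson correlation (colour and number) between 9 MHC genes over 38 left ventricles, from deviations from the group means of log2 CPM; both axes list the genes. Class I genes pair at 0.74 to 0.90, H2-Aa, H2-Ab1, Cd74 and Ciita at 0.66 to 0.93, and H2-Eb1 pairs with them at 0.10 to 0.22.

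H2-Eb1 shared this pattern less closely. Its Pearson correlations with the other 4 class II genes tested were 0.10 to 0.22, whereas those with the class I genes were 0.31 to 0.44. With the libraries at 0 counts left out (n = 31) the correlations were 0.16 to 0.36 with class II genes and 0.14 to 0.39 with class I genes, so both classes spanned like ranges. Hearts with like Cd74 could differ in H2-Eb1. HFpEF+SGLT2i V2563, with 64.7 TPM of Cd74, had 0 TPM of H2-Eb1, while HFpEF+SGLT2i V2573, with 64.8 TPM of Cd74, had 2.29 TPM.

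**Figure D5:**
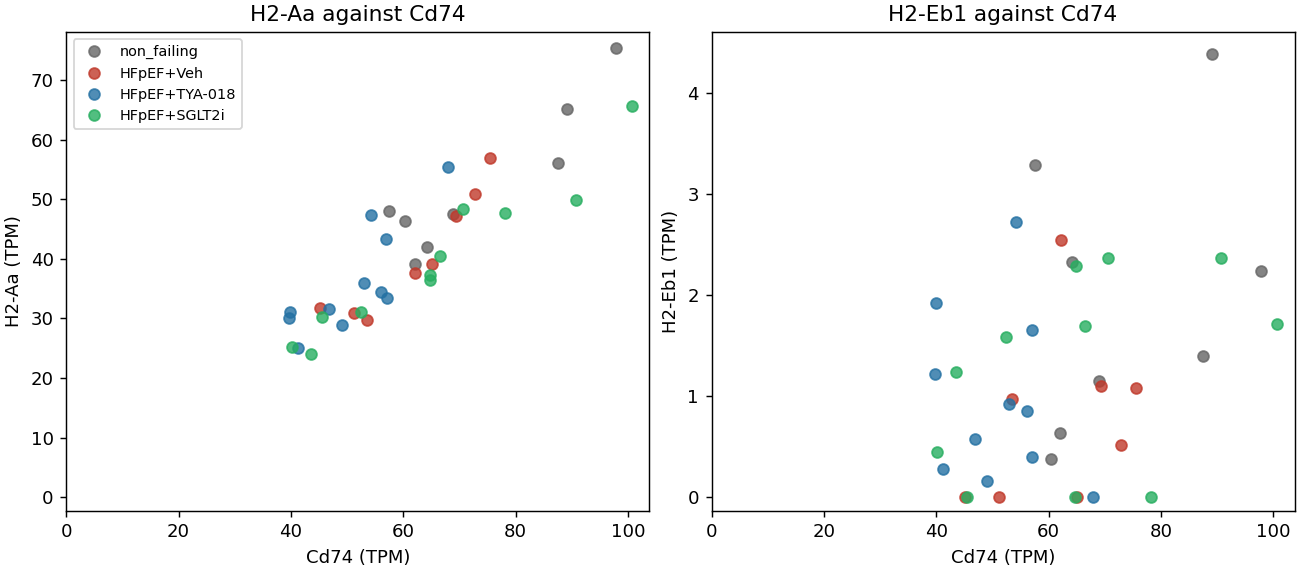
H2-Aa (left, vertical axis) and H2-Eb1 (right, vertical axis) against Cd74 (horizontal axes), all in TPM, 1 point per left ventricle, coloured by group. H2-Aa follows Cd74 across all groups, whereas H2-Eb1 is at 0 in libraries with Cd74 from 45.2 to 78.2 TPM.

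Both transactivators had their higher correlations with genes of their own class, H2-Eb1 excepted. Nlrc5 correlated with the 4 class I genes at 0.72 to 0.87, highest with Tap1, and with H2-Aa, H2-Ab1, Cd74 and Ciita at 0.43 to 0.66. Ciita correlated at 0.66 to 0.71 with H2-Aa, H2-Ab1 and Cd74 and at 0.43 to 0.55 with the class I genes. The genes outside the list most like the class II genes, by mean Pearson correlation with H2-Aa, H2-Ab1, H2-Eb1 and Cd74 over 38 libraries, were H2-DMb1 (0.71), Psd4 (0.60), Tgtp2 (0.59), Cd52 (0.59) and Irgm1 (0.58). Those most like H2-K1, H2-D1 and B2m were H2-T22 (0.89), H2-Q4 (0.84), H2-T23 (0.79), Bst2 (0.79) and H2-Q6 (0.79). The H2-T22, H2-Q4, H2-T23 and H2-Q6 genes are themselves class I genes of similar sequence, and the part of shared reads in their likeness was not tested.

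Class II genes were next set against markers of the cells that make them. The mean of the dendritic cell markers tested correlated with Cd74 at 0.80 (Spearman 0.76), with H2-Aa at 0.72, with H2-Ab1 at 0.64 and with Ciita at 0.52, but with H2-Eb1 at 0.36. Leaving out the 2 farthest libraries, V2571 and V2574, gave 0.73 for Cd74 and 0.67 for H2-Aa, and leaving out V2523 gave 0.80 and 0.72. Macrophage markers correlated with Cd74 at 0.46 (Spearman 0.44), 0.44 without the 2 farthest libraries and 0.48 without V2523. Their correlations ran from -0.13 to 0.51 over the 5 class II genes and from 0.16 to 0.57 over the class I genes. B cell markers correlated with Cd74 at 0.32 (Spearman 0.33), 0.41 without the 2 farthest libraries and 0.32 without V2523. T cell markers correlated with the 5 class II genes at 0.43 to 0.56 and with the class I genes at 0.45 to 0.56. Dendritic cell markers correlated with the class I genes too, at 0.56 to 0.72. The summed level of the 8 dendritic cell markers was 5.56 to 9.03 TPM in non_failing, 7.31 to 11.0 in HFpEF+Veh, 6.33 to 8.67 in HFpEF+TYA-018 and 6.50 to 15.2 TPM in HFpEF+SGLT2i. None of the 7 tested was called in any comparison. Most of that sum was Zbtb46 with a median of 5.01 TPM, a factor also made by endothelial cells, while Flt3 had 0.0471 and Itgax 0.160 TPM. All 8 were above 0 in at least 37 of 38 libraries. None of the 6 T cell and 8 endothelial markers tested was called in any comparison. In HFpEF+Veh against non_failing 3 of 8 cardiomyocyte markers were called lower, Tnnt2 at -0.43 (edgeR adjusted p = 0.0046), Myl2 at -0.37 and Tnni3 at -0.34, and 2 of 8 fibroblast markers higher, Lum at 0.86 (edgeR adjusted p = 0.0019) and Pdgfra at 0.33, beside 3.15% of all genes. Without V2523 the numbers called were 3 of 8 and 2 of 8, beside 4.49% of all genes. In HFpEF+SGLT2i against non_failing the same 3 cardiomyocyte markers were called lower, with Pdgfra higher at 0.35 and Tcf21 lower at -0.43, beside 6.45% of all genes, and in HFpEF+TYA-018 Lum was called higher at 0.54, beside 7.39%. Over the 38 libraries the mean of the cardiomyocyte markers correlated with the class I genes at -0.72 to -0.26 and with the class II genes at -0.31 to -0.07, endothelial markers with class I at 0.15 to 0.63, and fibroblast markers with class I at -0.18 to 0.13. Their part in the MHC values was not tested.

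Properties of the libraries also moved with these genes. Total counts correlated with the class I genes at -0.55 to -0.37 and with the 5 class II genes tested at -0.50 to -0.21. The median effective length, the transcript length in bases that the quantification assigns after bias correction, ran from 1803 to 2392 bases between libraries. It correlated with the class I genes at -0.60 for B2m, -0.57 for H2-D1, -0.56 for Tap1 and -0.44 for H2-K1, and with the class II genes at -0.39 for H2-Eb1 to -0.05 for H2-Ab1. Group means of this length were 2082 ± 83.3 bases for non_failing (SD, n = 8), 2047 ± 136 for vehicle (n = 8), 2003 ± 144 for TYA-018 (n = 11) and 2126 ± 117 for empagliflozin (n = 11). With the length as a covariate B2m in HFpEF+SGLT2i against non_failing and Cd74 in HFpEF+TYA-018 against non_failing were both still called, together with H2-Aa, Ciita and H2-K1 in the latter comparison. The share of all genes called was then 12.9% in the empagliflozin comparison and 9.68% in that of TYA-018. Without the covariate it was 6.45% and 7.39%.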

How the data were processed

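Left ventricles of 38 mice were sequenced. The authors made stranded polyA libraries, trimmed reads with fastp and quantified GENCODE transcripts of GRCm38.p6 with Salmon 1.6.0, correcting for sequence, GC and position bias, then used tximport to sum transcripts to genes. Expected counts, as deposited, are estimated reads per gene. The deposited TPM values were scaled by the authors to the transcripts of a library. The deposited effective lengths, in bases, are values of another kind that link both. Columns mapped to no sample numbered 0. Groups came from sample titles.

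Here expected counts were rounded, filtered with filterByExpr (13765 of 29564 genes) and scaled with TMM factors. All 38 libraries were fitted with edgeR 4.0.16 (R 4.3.3, two-sided quasi-likelihood test) in 1 model of 4 groups without covariates, with p-values adjusted by Benjamini-Hochberg over all genes tested. SEs were obtained by dividing the log2 fold change by the root of the F statistic. Libraries in a direction lie beyond the mean of the second group in log2 CPM (prior count 2). On simulated counts of 13765 genes for HFpEF+TYA-018 against HFpEF+Veh, 68 of 100 genes changed 1.5-fold and 86 of 100 changed 2-fold were recovered. Alternatives were DESeq2 1.42.0, limma 3.58.1 on log2(TPM + 1) for genes counted in at least 90% of libraries, library size alone, no filter, only the compared groups, and each library left out. A length offset and the median effective length of a library as a covariate, over genes with more than 50 counts in every library, were added after seeing the data.

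All 10 members were named, and from other lists up to 3 called genes per list and comparison, with Nlrc5, Ifng and the I-E alpha chain gene, and the 5 genes most alike in each class. H2-DMb1 is named also as the partner of H2-DMa. The members and lists were chosen with earlier results of these data known. Promoters came from RefSeq on GRCm38.p6, in which 7 of the 10 were searched. Shared stretches were counted in GENCODE transcripts of the same assembly. The values of 1 other gene that the rule names, not among the 10 members, are not reported here.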

Additional observations from a re-analysis of the deposited data

Results flagged for a closer look

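Within the groups of 8 hearts, the gap between an extreme library and its neighbour was compared with the range of the group by Dixon's ratio, whose critical value is 0.526 for 8 samples. Of 20 combinations of gene and group, 4 held a library beyond it, and chance flags about 1 in 20 groups. B2m in non_failing V2501 was 373 TPM, below the next library at 498 TPM. Tap1 in HFpEF+Veh V2526 was 9.32 TPM, above the next at 6.45 TPM. H2-Eb1 in HFpEF+Veh V2521 was 2.54 TPM against 1.10 TPM in the next, and H2-DMa in HFpEF+Veh V2528 was 0.519 TPM against 0.169 TPM. None of these was V2523, and groups of 11 were not examined in this way.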

How the results depend on the processing

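In HFpEF+TYA-018 against non_failing the count of class II genes called rose from 1 to 3 with library size alone, with DESeq2, with only the 2 groups and with median effective length as a covariate, and ran from 0 to 3 when 1 library was left out. The count of class I genes rose there from 0 to 1 with the length covariate, and ran from 0 to 1 when 1 library was left out. In HFpEF+SGLT2i against non_failing the 1 class I call became 0 with library size alone (B2m, edgeR adjusted p = 0.050), no filter (0.052) and limma (0.139), and ran from 0 to 1 with 1 library left out. The class II count there ran from 0 to 1. In the other comparisons 0 were called under every setting run. The cause of these changes was not tested. The share of all genes called ranged over all settings from 1.91% to 4.49% in HFpEF+Veh against non_failing, 0.302% to 7.96% in HFpEF+TYA-018 against HFpEF+Veh, 0% to 2.09% in HFpEF+SGLT2i against HFpEF+Veh, 0% to 3.20% between the drugs, and 4.29% to 9.68% and 3.79% to 12.9% for TYA-018 and empagliflozin against non_failing.

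Of 370 log2 fold changes recomputed under other settings, 12 changed sign, all of them differences that were not called. In HFpEF+Veh against non_failing, library size alone gave 0.0048 for H2-K1 and 0.018 for B2m, and limma 0.059 and 0.027. In HFpEF+SGLT2i against HFpEF+Veh, the length covariate gave 0.062 for Tap1 and limma -0.031 for H2-Aa. Between the drugs, H2-D1 was -0.026 with library size alone, -0.093 with the covariate and -5.1e-05 with limma, and Tap1 was -0.045 with library size alone and -0.22 with the covariate. Tap1 was -0.095 with the covariate in HFpEF+TYA-018 against non_failing.

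With 1 library left out, 12 differences crossed 0. In HFpEF+Veh against non_failing H2-K1 ran from -0.14 to 0.0022 and B2m from -0.12 to 0.0099. In HFpEF+TYA-018 against HFpEF+Veh Tap1 ran from -0.15 to 0.064 and H2-Aa from -0.085 to 0.067. In HFpEF+SGLT2i against HFpEF+Veh they ran from -0.20 to 0.060 and from -0.019 to 0.18. Between the drugs H2-K1 ran from -0.086 to 0.0011, H2-D1 from -0.0025 to 0.078 and Tap1 from -0.072 to 0.13. In HFpEF+TYA-018 against non_failing H2-D1 ran from -0.086 to 0.0051 and Tap1 from -0.0097 to 0.14, and in HFpEF+SGLT2i against non_failing Tap1 ran from -0.062 to 0.13. No paired analysis was possible because mouse numbers differ in every group. H2-DMa had at most 26.8 counts in a library and Ciita at most 78.5, which limits the precision of both.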

Other observations

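The mouse numbers of HFpEF+SGLT2i fall into 2 ranges, V2561 to V2566 (n = 6) and V2571 to V2575 (n = 5). Levels of the class I genes B2m, H2-D1 and H2-K1 did not overlap between them, whereas those of Tap1 did. B2m was 295 to 383 TPM in the first and 465 to 506 TPM in the second, H2-D1 93.2 to 117 and 140 to 174 TPM, and H2-K1 60.9 to 84.0 and 88.2 to 111 TPM. H2-Eb1 was 0 to 1.59 TPM in the first range and 1.69 to 2.37 TPM in the second. The remaining 6 genes overlapped. Tap1 was at 3.08 to 5.11 and 4.96 to 9.86 TPM, and Cd74 at 40.2 to 78.2 and 64.8 to 101 TPM. Of all 13765 genes tested elsewhere, 1.74% did not overlap in TPM between the same libraries. The labels do not say what the numbers stand for, the ranges were noticed after the values were seen, and no test was run. The libraries held 25.5 to 59.3 and 22.1 to 34.1 M counts (M, 1000000), with median effective lengths of 2003 to 2392 and 2041 to 2078 bases.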
